A study of Mus musculus with 17 samples.

Results

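The genes described here take fatty acids into skeletal muscle cells, release them from lipid droplets, carry them into mitochondria and oxidise them. They were chosen as 38 named genes on 17 single-colour bead arrays, each gene read on its brightest probe, and 34 of them had a listed probe among 16593 named genes. Acsl1, Acacb, Hadha and Ucp2 had no listed probe. The 34 divide into 9 genes of uptake and activation, 3 of lipolysis, 5 of the carnitine shuttle and its control, 15 of beta oxidation, and 2 of thioesterase and uncoupling. Of these, 32 were bright enough to be tested. Fabp4, at 8.33 to 8.43 on the log2 scale, and Cpt1a, at 8.33 to 8.4, were not.

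Each array read the RNA of 1 tibialis anterior muscle, collected at day 3 from male mice that were 8 weeks old, in 5 groups. In 1 experiment muscles of C57BL/6 mice were transfected with a p53 plasmid (4 arrays) or with a control plasmid (4 arrays). In the other experiment hindlimbs were immobile in p53 mKO mice (3 arrays), immobile in littermate control mice (3 arrays) or mobile in littermate control mice (3 arrays). p53 is a transcription factor best known as a tumour suppressor. The labels do not spell out mKO, do not name the cells in which the gene was removed, and do not tell which limbs share a mouse, and there was no mobile p53 mKO group. P-values therefore weigh a difference against the spread between arrays, which may be technical. No probe was listed for Trp53, so neither the knockout nor the plasmid was checked at the gene itself.

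Muscle fibres draw fatty acids from circulating lipoproteins and from their own lipid droplets. Lipoprotein lipase, encoded by Lpl, frees them in the capillaries and Angptl4 inhibits it. Inside the fibre Fabp3 binds fatty acids and the Acsl enzymes join them to coenzyme A. The carnitine shuttle moves the acyl groups across the mitochondrial membranes, with Cpt1b as the controlled step, and the cycle of beta oxidation then shortens them while passing electrons to the respiratory chain.

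Nuclear receptors of the PPAR and ERR families, which bind repeats or extended forms of the hexamer AGGTCA, are known to act on many of these genes, so the promoters were searched for those letters on both strands. RefSeq promoter windows on GRCm38.p6, 250 bases before to 50 after each start, were found for 32 member genes (37 windows), and none for Lpl, Angptl4, Fabp4, Cpt1b, Decr1 and Acaa2. The ERR element TNAAGGTCA was present in 1 of the 37 windows, that of Acsl6, and in 1.28% of all 32841 windows. The hexamer AGGTCA, which every such element contains, was present in 10 of the 37 windows, belonging to 9 genes, and in 16.3% of all windows. The PPAR element, 2 copies of AGGNCA spaced by 1 base of any kind, was present in 0 member windows and in 0.381% of all windows. The 250 bases before the start are shown for Acsl6, the member with the ERR element, for Ucp3, whose window holds the hexamer at 2 places, and for Acadvl, the beta oxidation gene with the largest fall under the p53 plasmid. They lie at chr11:54303574-54303823 on the plus strand, chr7:100472741-100472990 on the plus strand and chr11:70015429-70015678 on the minus strand. Capitals mark the matches, which read TGACCT where the opposite strand holds the hexamer. A match is a description of letters and no evidence of binding.
Acsl6: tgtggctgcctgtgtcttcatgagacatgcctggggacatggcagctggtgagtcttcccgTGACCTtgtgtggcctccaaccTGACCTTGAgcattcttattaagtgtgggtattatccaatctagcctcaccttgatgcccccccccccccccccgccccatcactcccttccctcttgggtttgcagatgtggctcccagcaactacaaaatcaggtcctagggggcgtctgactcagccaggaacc
Ucp3: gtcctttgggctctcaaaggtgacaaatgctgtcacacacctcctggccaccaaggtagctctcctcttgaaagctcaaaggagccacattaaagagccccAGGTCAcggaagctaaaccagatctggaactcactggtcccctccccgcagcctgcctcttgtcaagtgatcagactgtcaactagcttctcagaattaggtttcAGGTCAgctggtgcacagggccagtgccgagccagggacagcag
Acadvl: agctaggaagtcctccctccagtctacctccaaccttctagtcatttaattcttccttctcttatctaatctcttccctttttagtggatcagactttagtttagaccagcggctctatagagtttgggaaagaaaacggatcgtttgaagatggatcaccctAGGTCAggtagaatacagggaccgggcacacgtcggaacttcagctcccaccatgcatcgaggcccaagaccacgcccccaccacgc

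All values are the authors' normalized log2 values, with array medians of 8.48 to 8.5 close to the lowest values, so differences of genes near that floor are understated. Cd36, Fabp4, Lipe, Cpt1a and Acot2 stayed under 9 on every array. The tissue label fits its markers: the 8 muscle fibre markers averaged 14.949 to 15.337 over the arrays, while the 6 adipocyte markers with a probe averaged 8.665 to 9.148. Of these Plin1, Retn and Cidea stayed under 9 on all arrays and the other 3 passed 9 on some, with Adipoq at 10.29 to 10.58 in mobile control limbs. Some arrays stood apart. Array 2 of the p53 plasmid group was the lowest of its group for many oxidation genes, the arrays numbered 3 of both immobile groups departed together from numbers 1 and 2, and immobile control array 1 had the highest macrophage markers of the immobilization experiment. Member calls were also made without them, and some member differences are given both ways. Values of cell markers and of neighbouring pathways are given with all arrays only.

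**Figure D1:**
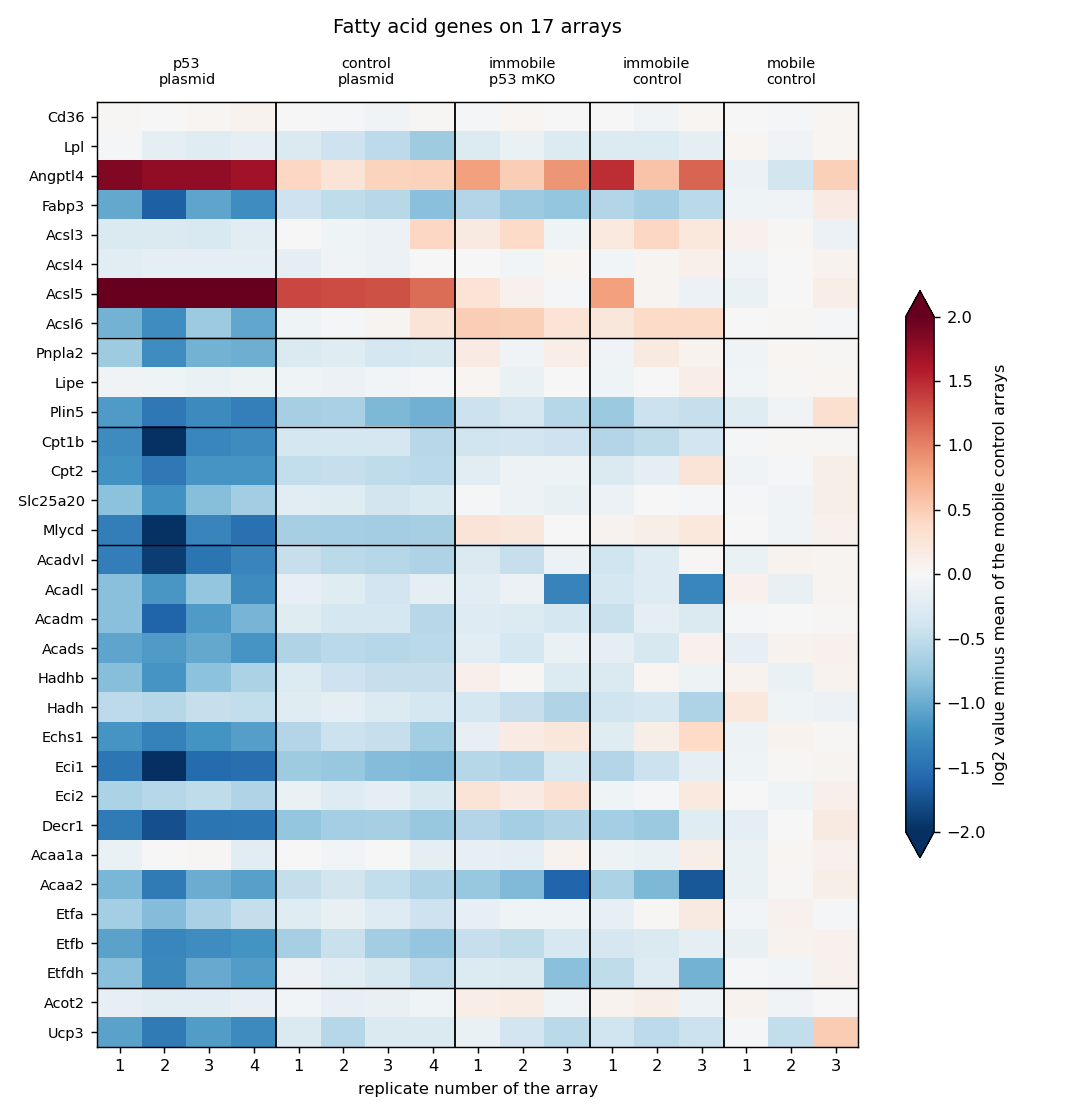
The 32 tested members (rows, grouped by role between the black lines) on the 17 arrays (columns, by group and replicate number), coloured by the log2 value minus the mean of the 3 mobile control arrays; values beyond the ends of the scale take its darkest colours. Most oxidation genes are lowest on the 4 p53 plasmid arrays, Angptl4 and Acsl5 are highest there, and Acadl and Acaa2 are low on the arrays numbered 3 of both immobile groups.

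The p53 plasmid was compared with the control plasmid to ask what added p53 does to these genes in muscle. The oxidation machinery fell almost as a whole. Of the 32 members tested, 24 fell and 3 rose (adjusted p under 0.05 over all genes tested, limma), with a median log2 difference of -0.59. The plasmid moved much of the transcriptome, since 58.8% of 10398 genes were called, 30.2% higher and 28.6% lower, with a median of 0.0. Of the 19 tested genes of the carnitine shuttle and beta oxidation, 18 fell and 0 rose, with a median of -0.66. The mean over these 19 genes was 11.34, 11, 11.31 and 11.3 on the p53 plasmid arrays, against 11.92, 11.92, 11.86 and 11.78 on the control plasmid arrays. The groups did not overlap, and the lowest value was that of p53 plasmid array 2. How many of all genes had groups without overlap was not counted. Here and below, a lack of overlap describes the arrays and does not set members apart from other genes.

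Uptake and activation did not move one way: of 8 tested genes 3 rose and 3 fell, 37.5% each, against 30.2% and 28.6% of all genes. Such a split does not set these genes apart. Angptl4, the inhibitor of lipoprotein lipase, had the largest rise. It stood at 11.14, 11.06, 11.06 and 10.96 on the p53 plasmid arrays, against 9.7, 9.54, 9.73 and 9.75 on the control plasmid arrays. The groups were far apart and tight, and the difference was 1.38 ± 0.06 (SE, adjusted p = 4.49e-06), or 2.59-fold higher. Acsl5, an acyl-CoA synthetase, stood at 12.27, 12.52, 12.27 and 12.37 on the p53 plasmid arrays, against 11.47, 11.45, 11.41 and 11.26 on the control plasmid arrays. It rose 1.95-fold (log2 difference 0.96 ± 0.07, adjusted p = 1.92e-05). Lpl itself rose less, by 0.33 ± 0.09 (adjusted p = 0.0114). Its values were 14.43, 14.25, 14.21 and 14.27 on the p53 plasmid arrays, against 14.15, 14.03, 13.92 and 13.74 on the control plasmid arrays, so the groups were close but did not overlap. With quantile normalization the rise of Lpl was 0.24 and no longer passed (adjusted p = 0.0583).

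Acsl6, another acyl-CoA synthetase, went the other way. Its values were 9.93, 9.62, 10.14 and 9.83 on the p53 plasmid arrays, against 10.79, 10.84, 10.92 and 11.12 on the control plasmid arrays. It fell 2.05-fold (-1.04 ± 0.11, adjusted p = 0.00011). A second probe of Acsl6 fell by 0.57, and the other lay near the floor with a difference of 0.01. Fabp3, the fatty acid binding protein of heart and skeletal muscle, was at 13.23, 12.61, 13.19 and 13 on the p53 plasmid arrays, against 13.83, 13.74, 13.69 and 13.42 on the control plasmid arrays. Every p53 plasmid array lay below every control plasmid array, and the fall was -0.66 ± 0.15 (adjusted p = 0.0043). Acsl3 fell by 0.33 on a dim probe (adjusted p = 0.0323), at 9.24, 9.24, 9.23 and 9.32 on the p53 plasmid arrays, against 9.54, 9.44, 9.41 and 9.95 on the control plasmid arrays, the last of which stood above the rest. That call was lost without p53 plasmid array 1, 2 or 3 (adjusted p = 0.0684, 0.066 and 0.0702) and without control plasmid array 1 (0.0562). Cd36, a membrane carrier of fatty acids, and Acsl4 were dim and did not pass (0.04 ± 0.03 and -0.10 ± 0.04).

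Among the genes of lipolysis and droplets, Pnpla2, which encodes adipose triglyceride lipase and makes the first cut in stored triglyceride, fell. It was at 12.46, 11.92, 12.22 and 12.18 on the p53 plasmid arrays, against 12.88, 12.92, 12.81 and 12.85 on the control plasmid arrays (-0.67 ± 0.10, adjusted p = 0.000523). Plin5, a droplet coat protein of oxidative tissues, fell by 0.51 (SE 0.09, adjusted p = 0.00155), at 8.96, 8.65, 8.82 and 8.72 on the p53 plasmid arrays, against 9.43, 9.44, 9.19 and 9.13 on the control plasmid arrays. The groups of both genes did not overlap. Lipe, hormone-sensitive lipase, was near the floor and differed by -0.03 ± 0.03.

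All 4 tested genes of the carnitine shuttle and its control fell. Cpt1b, the muscle carnitine palmitoyltransferase of the outer membrane, fell 2.07-fold. It stood at 12.01, 11.29, 11.96 and 12.02 on the p53 plasmid arrays, against 12.92, 12.92, 12.94 and 12.71 on the control plasmid arrays (-1.05 ± 0.16, adjusted p = 0.000624). The groups did not overlap, and array 2 was the lowest p53 plasmid array. Without it the difference was -0.88 and still passed. A second Cpt1b probe differed by -1.04. Cpt2, which returns the acyl group to coenzyme A inside the mitochondrion, was at 10.51, 10.28, 10.53 and 10.54 on the p53 plasmid arrays, against 11.23, 11.25, 11.21 and 11.17 on the control plasmid arrays (-0.75 ± 0.06, adjusted p = 2.6e-05). Slc25a20, the carnitine-acylcarnitine carrier of the inner membrane, fell by 0.61 (SE 0.10, adjusted p = 0.000913), at 12, 11.62, 11.98 and 12.13 on the p53 plasmid arrays, against 12.62, 12.59, 12.46 and 12.52 on the control plasmid arrays. Mlycd, whose product removes malonyl-CoA, the inhibitor of Cpt1, was at 10.9, 10.3, 10.95 and 10.78 on the p53 plasmid arrays, against 11.61, 11.59, 11.58 and 11.61 on the control plasmid arrays, a 1.82-fold fall (adjusted p = 0.000557). For these 3 genes too, no array of one group reached the other.

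Of the 15 beta oxidation genes, 14 fell. The acyl-CoA dehydrogenases, which open the cycle for acyl groups of different length, all did. Acadvl, for very long chains, was at 11.81, 11.29, 11.73 and 11.88 on the p53 plasmid arrays, against 12.73, 12.65, 12.63 and 12.57 on the control plasmid arrays. That is a 1.96-fold fall (-0.97 ± 0.12, adjusted p = 0.0002). Acadl, for long chains, fell by 0.76 (SE 0.11), Acadm, for medium chains, by 0.75 (SE 0.16), and Acads, for short chains, by 0.53 (SE 0.04), with adjusted p = 0.00052, 0.00337 and 2.03e-05. Acadl stood at 10.41, 10.08, 10.47 and 9.99 on the p53 plasmid arrays, against 11.08, 11, 10.86 and 11.05 on the control plasmid arrays. Acadm stood at 13.4, 12.64, 13.1 and 13.3 on the p53 plasmid arrays, against 13.99, 13.89, 13.88 and 13.68 on the control plasmid arrays. Acads stood at 9.77, 9.7, 9.81 and 9.65 on the p53 plasmid arrays, against 10.22, 10.28, 10.26 and 10.29 on the control plasmid arrays. None of the 3 genes' groups overlapped.

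The next steps of the cycle fell as well. Echs1, the short-chain enoyl-CoA hydratase, was at 11.32, 11.15, 11.3 and 11.4 on the p53 plasmid arrays, against 11.91, 12.07, 12.03 and 11.8 on the control plasmid arrays (-0.66 ± 0.07, adjusted p = 0.000106). Hadhb, a subunit of the trifunctional protein, fell by 0.47 (adjusted p = 0.00536), at 12.7, 12.37, 12.72 and 12.92 on the p53 plasmid arrays, against 13.27, 13.14, 13.08 and 13.09 on the control plasmid arrays. Acaa2, the mitochondrial thiolase that closes the cycle, fell by 0.61 (adjusted p = 0.00128), at 11.1, 10.59, 11.02 and 10.93 on the p53 plasmid arrays, against 11.54, 11.64, 11.52 and 11.4 on the control plasmid arrays. Hadh, the short-chain hydroxyacyl-CoA dehydrogenase, had the smallest called fall, 0.24 on a dim probe, at 8.71, 8.66, 8.76 and 8.73 on the p53 plasmid arrays, against 8.99, 9.03, 8.95 and 8.87 on the control plasmid arrays. The groups of all 4 genes did not overlap on their brightest probes. A second Hadh probe, near the floor, overlapped, at 8.38 to 8.41 on the p53 plasmid arrays and 8.34 to 8.42 on the control plasmid arrays. Acaa1a, a peroxisomal thiolase with a near-identical copy in the genome, was the 1 gene of this group that did not pass. It stood at 12.16, 12.28, 12.31 and 12.08 on the p53 plasmid arrays, against 12.3, 12.24, 12.28 and 12.11 on the control plasmid arrays, and the 95% interval of its difference ran from -0.17 to 0.12.

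The enzymes that prepare unsaturated fatty acids for the cycle also fell. Decr1, a dienoyl-CoA reductase, was at 9.28, 8.93, 9.23 and 9.24 on the p53 plasmid arrays, against 9.92, 10.01, 10.03 and 9.93 on the control plasmid arrays (-0.80 ± 0.08, adjusted p = 5.58e-05). Eci1, an enoyl-CoA isomerase, was at 11.47, 10.82, 11.37 and 11.41 on the p53 plasmid arrays, against 12.21, 12.15, 12.05 and 12.03 on the control plasmid arrays (-0.84 ± 0.14, adjusted p = 0.000842). Its relative Eci2 fell by 0.35 (adjusted p = 0.00028), at 10.5, 10.57, 10.63 and 10.54 on the p53 plasmid arrays, against 11.01, 10.88, 10.94 and 10.82 on the control plasmid arrays. Here too no p53 plasmid array reached a control plasmid array. The electron acceptors of the dehydrogenases fell together: Etfa by 0.40, Etfb by 0.56 and Etfdh, which hands the electrons to ubiquinone, by 0.77 (adjusted p = 0.0038, 0.000342 and 0.0005). Etfa stood at 13.64, 13.46, 13.67 and 13.85 on the p53 plasmid arrays, against 14.07, 14.17, 14.06 and 13.91 on the control plasmid arrays. Etfb stood at 12.83, 12.6, 12.67 and 12.71 on the p53 plasmid arrays, against 13.24, 13.46, 13.21 and 13.13 on the control plasmid arrays. Etfdh stood at 10.91, 10.46, 10.74 and 10.63 on the p53 plasmid arrays, against 11.63, 11.53, 11.43 and 11.22 on the control plasmid arrays. On these brightest probes each gene's groups were apart on every array. A second Etfb probe overlapped, at 11.61 to 11.87 on the p53 plasmid arrays and 11.85 to 12.11 on the control plasmid arrays. The second Etfdh probe, near the floor, overlapped too, while the groups of the other Etfa probes did not.

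Ucp3, a mitochondrial carrier of muscle that rises with fatty acid supply, was at 8.98, 8.64, 8.93 and 8.78 on the p53 plasmid arrays, against 9.75, 9.48, 9.76 and 9.76 on the control plasmid arrays. It fell 1.81-fold (adjusted p = 9.57e-05). Acot2, a mitochondrial thioesterase, was near the floor and differed by -0.08 ± 0.03 (adjusted p = 0.0587). Of the 27 calls made for the p53 plasmid, 26 were kept whichever array was left out, the exception being Acsl3.

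Markers of other cells moved with these falls. All 9 macrophage markers with a probe rose with the p53 plasmid. Their mean was 12.152 to 12.319 on the p53 plasmid arrays and 10.916 to 11.242 on the control plasmid arrays, with Itgam under 9 on every array. Of 8 tested endothelium markers 7 fell, with a mean over the 9 listed of 9.854 to 9.983 against 10.097 to 10.13. Of 8 muscle fibre markers, 3 fell and 0 rose, Actn3 by 0.60, Myh4 by 0.31 and Ckm by 0.24, with a list median of -0.10 against -0.66 for the 19 oxidation genes. The mean of the fibre markers was 14.949 to 15.132 on the p53 plasmid arrays and 15.2 to 15.24 on the control plasmid arrays. Fibroblast markers rose in 3 of 6, Col1a2 by 0.59, Pdgfra by 0.53 and Col3a1 by 0.52, with all 6 above 0, and their mean was 12.145 to 12.577 on the p53 plasmid arrays and 11.975 to 12.1 on the control plasmid arrays. Neutrophil markers rose in 2 of 4, with a mean over the 6 listed of 8.655 to 9.232 on the p53 plasmid arrays and 8.547 to 8.712 on the control plasmid arrays, Ngp, Camp and Mpo being under 9 on every array. In whole muscle, fewer fibres and less RNA of a gene per fibre cannot be told apart, and the part of other cells in the changes was not tested.

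**Figure D2:**
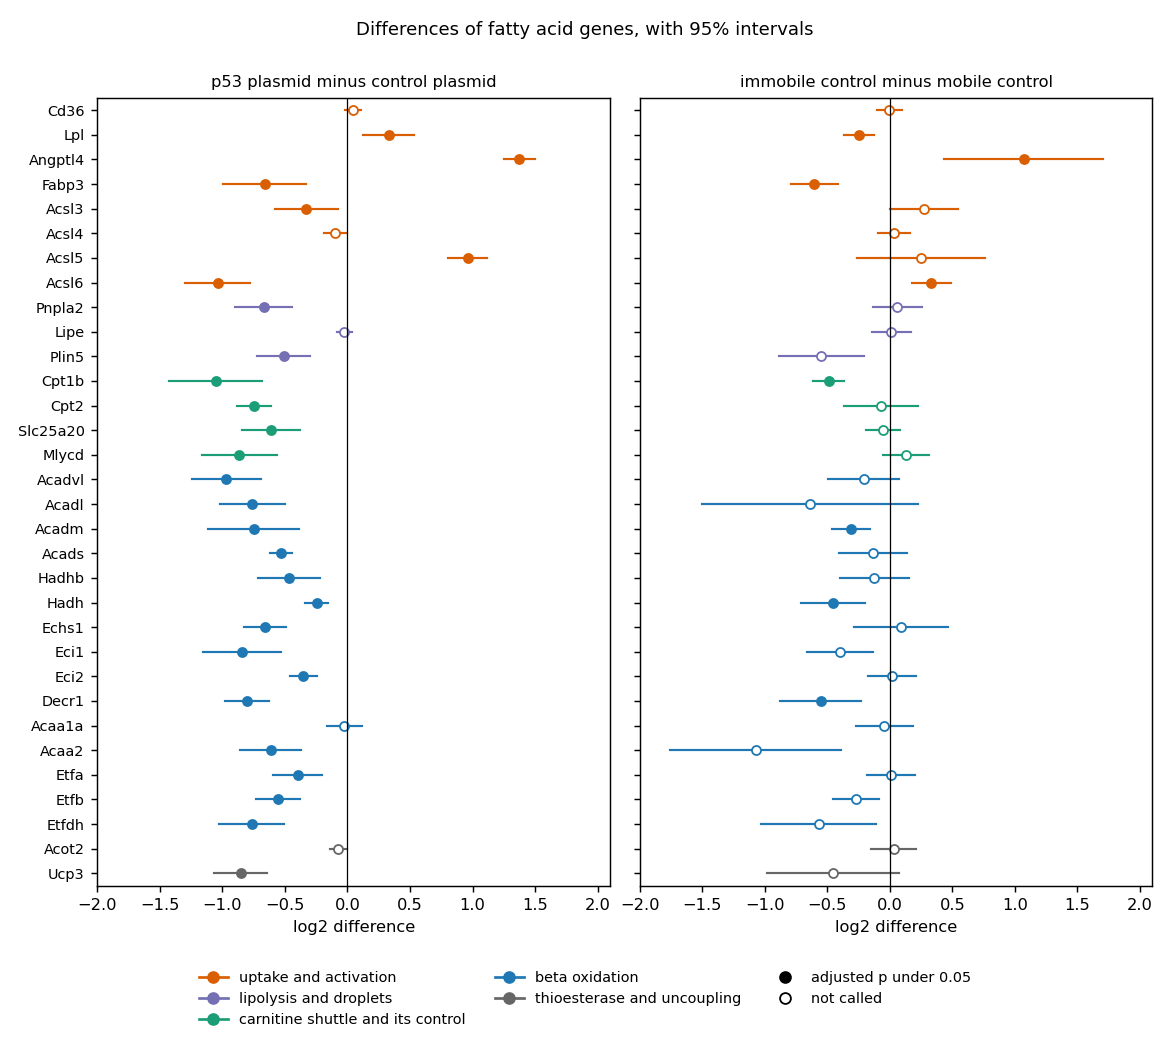
Log2 difference of each tested member with its 95% interval, for the p53 plasmid minus the control plasmid (left) and immobile control minus mobile control (right), coloured by role; filled points passed an adjusted p under 0.05. On the left 18 of 19 carnitine and beta oxidation genes lie below 0 with filled points, and on the right 4 of 19 do.

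The comparison of immobile with mobile limbs in control mice asks how 3 days of disuse change these genes. The response was smaller and uneven. Of 32 members, 6 fell and 2 rose, where 11.5% of all 10842 genes were called, 5.1% higher and 6.36% lower. The median log2 difference of the members was -0.10, against 0.003 for all genes, and -0.21 for the 19 carnitine and beta oxidation genes, of which 4 fell and 0 rose. Their mean was 11.98, 12.07 and 12.07 on the immobile control arrays, against 12.26, 12.3 and 12.37 on the mobile control arrays, with no overlap.

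Cpt1b and Fabp3 fell with the smallest p. Cpt1b was at 12.69, 12.76 and 12.89 on the immobile control arrays, against 13.23, 13.29 and 13.29 on the mobile control arrays (-0.49 ± 0.05, adjusted p = 0.00129). Fabp3 was at 13.66, 13.57 and 13.71 on the immobile control arrays, against 14.16, 14.18 and 14.41 on the mobile control arrays (-0.60 ± 0.08, adjusted p = 0.00338). Neither gene's groups overlapped, and both calls were kept whichever array was left out. The other shuttle genes differed little: Cpt2 by -0.07 ± 0.13, Slc25a20 by -0.05 ± 0.06 and Mlycd by 0.13 ± 0.08, none of which passed.

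The other 6 calls each depended on single arrays and on other settings. Angptl4 rose 2.1-fold, at 10.76, 9.85 and 10.45 on the immobile control arrays, against 9.17, 8.92 and 9.76 on the mobile control arrays (1.07 ± 0.28, adjusted p = 0.0439). The lowest immobile value was just above the highest mobile value. The call was lost without immobile control array 1 or 3 (adjusted p = 0.1002 and 0.0913) and without mobile control array 1 or 2 (0.128 and 0.16). It was also lost with array weights, where the difference was 0.69 (0.06), with no filter on dim genes (0.0743) and with only the arrays of these 2 groups (0.0893). Acsl6 rose, at 11.1, 11.26 and 11.25 on the immobile control arrays, against 10.87, 10.9 and 10.84 on the mobile control arrays (0.33 ± 0.07, adjusted p = 0.0194). It lost its call without immobile control array 2 (0.0613) and without mobile control array 1, 2 or 3 (0.0608, 0.0627 and 0.0749), and in a fit of all 17 arrays (0.051). Lpl fell, at 14.17, 14.18 and 14.25 on the immobile control arrays, against 14.49, 14.37 and 14.48 on the mobile control arrays (-0.25 ± 0.05, adjusted p = 0.0221). It lost its call without immobile control array 1 or 2 (0.0549 and 0.0648) and without mobile control array 1 or 3 (0.0763 and 0.0844), and in a fit of all 17 arrays (0.0571).

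Within beta oxidation Acadm, Decr1 and Hadh fell. Acadm was at 13.79, 14.05 and 13.94 on the immobile control arrays, against 14.22, 14.23 and 14.26 on the mobile control arrays (-0.31 ± 0.07, adjusted p = 0.0202), a call lost without mobile control array 1, 2 or 3 (0.0566, 0.0758 and 0.0764). It was also lost with the mean of both Acadm probes, where the difference was -0.67 (0.112), with all 17 arrays (0.16) and with only the arrays of these 2 groups (0.0525). Decr1 was at 10, 9.95 and 10.45 on the immobile control arrays, against 10.51, 10.68 and 10.87 on the mobile control arrays (-0.55 ± 0.14, adjusted p = 0.041). Its call held without immobile control array 3 and was lost without each other array of the 2 groups (0.0501 to 0.14), with no filter on dim genes (0.0673) and with only the arrays of these 2 groups (0.0942). Hadh was at 8.83, 8.87 and 8.61 on the immobile control arrays, against 9.43, 9.14 and 9.11 on the mobile control arrays (-0.46 ± 0.11, adjusted p = 0.0348), and lost its call without any 1 of the 6 arrays (0.0531 to 0.0888), with no filter (0.0559) and with only these 2 groups (0.0626). None of the 3 genes' groups overlapped on their brightest probes. A second Hadh probe, near the floor, overlapped, at 8.38 to 8.49 on the immobile control arrays and 8.42 to 8.44 on the mobile control arrays. Over the fits that left out 1 array, 7 members were called without immobile control array 3 and 5 without immobile control array 1. The number was 4 without immobile control array 2 or mobile control array 1, and 3 without mobile control array 2 or 3.

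Several further genes lay lower without passing in the main fit. Plin5 did pass with quantile normalization, the mean of all probes, a variance trend, array weights, all 17 arrays and the replicate number as a block. Acaa2 passed with the mean of all probes, array weights, all 17 arrays and the block. Etfb, Eci1 and Etfdh also passed under some settings, and Acadvl, Acads and Acsl3 with array weights, while Acadl passed under none. Acaa2 had the largest difference, at 11.38, 11.11 and 10.32 on the immobile control arrays, against 11.87, 12.03 and 12.13 on the mobile control arrays (-1.07 ± 0.30, adjusted p = 0.0558). Plin5 differed by -0.55 (adjusted p = 0.0511), Eci1 by -0.40 (0.0627), Etfb by -0.27 (0.0658), Etfdh by -0.57 (0.113) and Acadl by -0.64 (0.331). On the brightest probes of these 5 genes too the groups did not overlap, though the share of all genes without overlap was not counted. A second Etfb probe overlapped, at 12.07 to 12.56 on the immobile control arrays and 12.51 to 12.78 on the mobile control arrays. The groups of a second Acadl probe met at 10.57, and those of another, near the floor, overlapped. The second probes of Plin5 and Etfdh did not overlap. Acadvl (-0.21 ± 0.12), Acads (-0.13 ± 0.12), Hadhb (-0.12 ± 0.12), Echs1 (0.09 ± 0.16) and Etfa (0.01 ± 0.08) had intervals that included 0. Pnpla2, which fell with the p53 plasmid, differed by 0.06 ± 0.08. Acsl3 lay higher without passing (0.27 ± 0.12, adjusted p = 0.191) and Ucp3 lower (-0.45 ± 0.23, 0.255). Cd36, Acsl4, Lipe, Eci2, Acaa1a and Acot2 differed by no more than 0.04 to either side.

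Macrophage markers were uneven in the immobile limbs. Their mean was 11.37, 10.32 and 9.84 on the immobile control arrays, against 9.52, 9.41 and 9.44 on the mobile control arrays, and all 8 tested lay above 0, with a median difference of 1.24. Of these Mrc1 passed (1.29 ± 0.21, adjusted p = 0.00707), and 7 had an unadjusted p under 0.05 (limma). Acsl5 was likewise highest on immobile control array 1, at 10.96 against 10.19 and 10.02 on arrays 2 and 3, and its difference of 0.25 ± 0.22 from mobile limbs did not pass. The mean of the muscle fibre markers was 15.174 to 15.294 on the immobile control arrays, against 15.258 to 15.331 on the mobile control arrays, with 0 of 8 called and 2 at an unadjusted p under 0.05 (limma). The part of other cells in the changes was not tested.

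**Figure D3:**
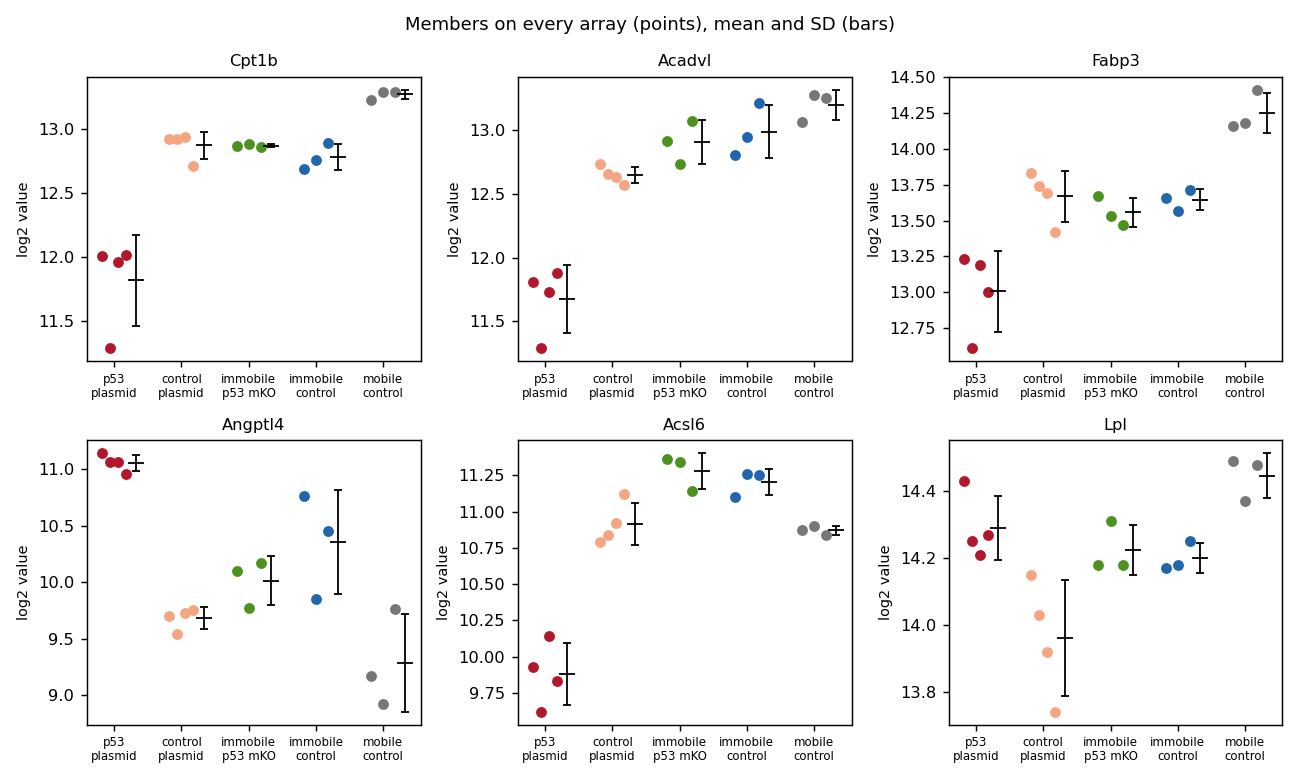
Log2 values of 6 members on every array (points, by group), with the group mean and SD beside them. Cpt1b, Acadvl and Fabp3 are lowest on the p53 plasmid arrays, Angptl4 is highest there, Acsl6 is low with the p53 plasmid and high in immobile limbs, and Lpl lies lower in immobile control than in mobile control limbs but higher with the p53 plasmid than with the control plasmid.

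The arrays numbered 3 of the immobile p53 mKO and immobile control groups differed from numbers 1 and 2 in the same genes. Of the 34 members, 6 lay lower on both arrays numbered 3 than on all 4 others, 7 lay higher and 21 overlapped. The same split was not counted over all genes, so these counts do not set the members apart from other genes. Acadl was at 11.04, 11.13 and 9.9 on p53 mKO arrays 1, 2 and 3, against 10.89, 10.99 and 9.94 on immobile control arrays 1, 2 and 3, so that arrays 3 averaged 1.09 lower than the others in log2. Acaa2 was at 11.25, 11.13 and 10.43 on the p53 mKO arrays, against the immobile control values given above, and arrays 3 averaged 0.84 lower. Etfdh averaged 0.56 lower and Acsl5 0.38 lower, while Echs1, Eci1, Acadvl, Cpt2 and Acads averaged 0.34, 0.30, 0.30, 0.27 and 0.25 higher. These are descriptions of arrays that were singled out for standing apart.

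Probes of the same gene did not move together on those arrays. The second probe of Acadm averaged 1.33 lower on arrays 3 than on arrays 1 and 2, while its brightest probe averaged 0.04 lower. The fourth probe of Etfa averaged 0.97 lower, while its brightest averaged 0.15 higher. Of 4 Acaa2 probes, 3 averaged 0.84, 0.88 and 0.84 lower and the fourth 0.24 higher. The second Acadl probe averaged 0.19 higher where the brightest averaged 1.09 lower. What sets these 2 arrays and these probes apart was not tested.

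Without both arrays numbered 3, 10 members were called between immobile control and mobile control limbs, 9 lower and 1 higher. Over all genes 1703 of 10996 were called in that fit, against 1243 of 10842 with every array, so calls rose beyond these members too. Of the 8 calls above 6 were kept, Angptl4 (adjusted p = 0.0915) and Hadh (0.0558) were lost, and Acaa2, Eci1, Etfb and Etfdh were gained, all lower.

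**Figure D4:**
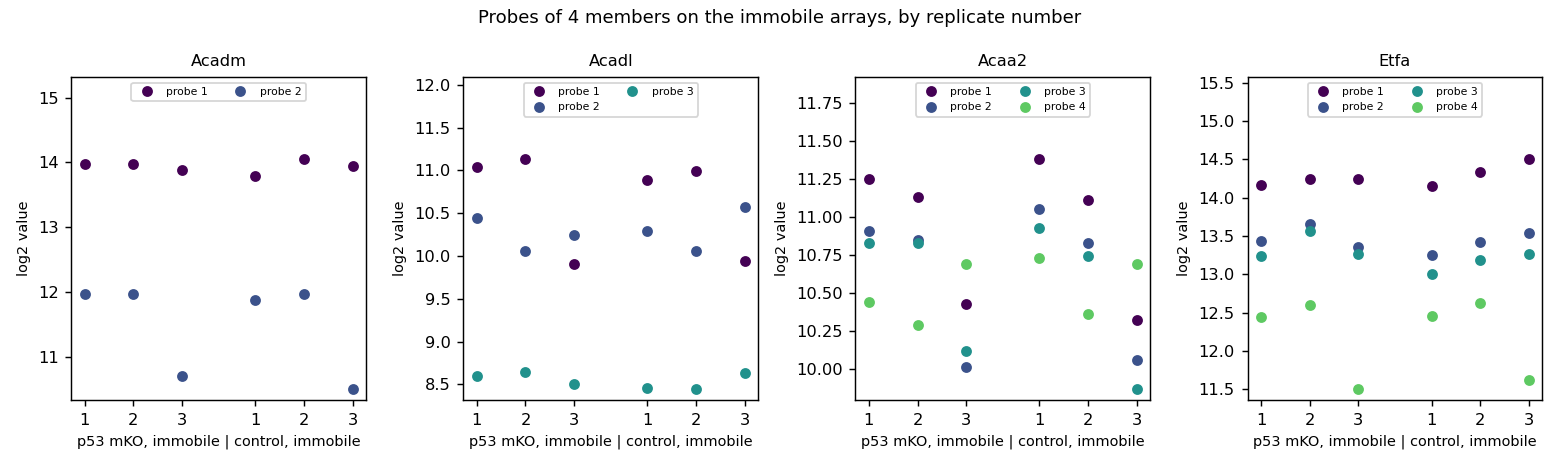
Log2 values of each probe of Acadm, Acadl, Acaa2 and Etfa on the 3 immobile p53 mKO arrays (left of each panel) and the 3 immobile control arrays (right), by replicate number, probe 1 being the brightest. On both arrays numbered 3, some probes of a gene are lower by about 0.8 or more while others of the same gene are not.

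Immobile p53 mKO limbs were compared with immobile control limbs to ask whether the loss of p53 changes these genes during disuse. No member was called: 0 of 32 rose and 0 fell, with 0.0% of all 10842 genes called by limma, 1 member and 319 genes having an unadjusted p under 0.05. No label pairs the arrays of these 2 groups, but those of the same number deviated alike (correlations of 0.62, 0.482 and 0.813). Unlike-numbered arrays 1 and 2 correlated at 0.178 and 0.199, and pairs with 1 array numbered 3 at -0.757 to -0.438. Deviations from a mean of 3 arrays depend on each other, so these values cannot settle how arrays 1 and 2 pair. The replicate number was still used as a block in a fit of these 6 arrays, a choice made from the values being tested. The counts were again 0 of 32 members and 0 genes, with 3 members and 712 genes at an unadjusted p under 0.05 (limma). The member differences ran from -0.34 for Angptl4 to 0.22 for Eci2, with a median of -0.01. Eci2 was at 11.4, 11.31 and 11.44 on the p53 mKO arrays, against 11.05, 11.1 and 11.33 on the immobile control arrays, so the ranges overlapped while each p53 mKO array lay above the immobile control array of its number. Its paired 95% interval was 0.07 to 0.38 (unadjusted p = 0.0168, adjusted p = 0.724, limma). Etfb was at 13.45, 13.4 and 13.58 on the p53 mKO arrays, against 13.57, 13.61 and 13.73 on the immobile control arrays, lower within each pair, with a paired interval of -0.26 to -0.06 (unadjusted p = 0.0124, adjusted p = 0.724, limma). Angptl4 was at 10.1, 9.77 and 10.17 on the p53 mKO arrays, against 10.76, 9.85 and 10.45 on the immobile control arrays, also lower within each pair, with a paired interval of -0.67 to -0.01 (unadjusted p = 0.0455, adjusted p = 0.727, limma). These are the 3 members with an unadjusted p under 0.05 in the paired fit. Cpt1b was at 12.87, 12.88 and 12.86 on the p53 mKO arrays, against 12.69, 12.76 and 12.89 on the immobile control arrays (0.09 ± 0.05). Fabp3 was at 13.67, 13.53 and 13.47 on the p53 mKO arrays, against 13.66, 13.57 and 13.71 on the immobile control arrays (-0.09 ± 0.08).

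These are missed thresholds and do not show that the groups are alike. In the paired fit the 95% interval of a member's difference reached 0.17 to either side in the median, against 0.24 without the pairing. The outermost paired bounds were -0.67 for Angptl4 and 0.40 for Hadhb, against -0.98 for Angptl4 and 0.94 for Acadl without the pairing. Acadl, one of the genes that split by replicate number, had a paired interval of -0.06 to 0.23, and Acaa2 one of -0.16 to 0.16. Pairing did not narrow every interval: that of Pnpla2 was -0.27 to 0.30 with it and -0.18 to 0.21 without it. Without both arrays numbered 3, 0 members were called as well. The macrophage marker mean was 9.864 to 10.491 on the p53 mKO arrays and 9.842 to 11.367 on the immobile control arrays, whose highest value was array 1.

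Against mobile control limbs, immobile p53 mKO limbs had 8 members lower and 1 higher, where 9.75% of all genes were called, 4.47% higher and 5.28% lower. This comparison shares its mobile arrays with that of the immobile control limbs, so the 2 sets of calls are not independent. Fabp3 differed by -0.69 ± 0.08 (adjusted p = 0.00235), Cpt1b by -0.40 ± 0.05 (0.00362) and Acsl6 by 0.41 ± 0.07 (0.0101), and these 3 calls were kept whichever array was left out. In a fit of all 17 arrays that of Cpt1b was lost (adjusted p = 0.0803). Etfb (-0.43 ± 0.08, adjusted p = 0.0134) and Eci1 (-0.50 ± 0.11, 0.0317) passed here and not in the immobile control limbs, and Angptl4 (0.73 ± 0.28, 0.154) passed there and not here, but for none of these genes was the difference between the immobile groups itself called. In a fit of all 17 arrays, and with the replicate block, Angptl4 passed here too. The other calls of the main fit were Acadm (-0.29, adjusted p = 0.0287), Decr1 (-0.63, 0.0291), Hadh (-0.47, 0.0345) and Lpl (-0.22, 0.0362).

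Each of those calls outside Fabp3, Cpt1b and Acsl6 was lost when some array was left out. Acadm (0.0658 to 0.104) and Hadh (0.0519 to 0.104) lost theirs without any 1 of the 6 arrays. Decr1 lost it without each array but mobile control array 1 (0.0744 to 0.108), and Eci1 without each array but p53 mKO array 3 (0.0647 to 0.118). Etfb lost it without p53 mKO array 1 or 2 (0.0501 and 0.0531) and mobile control array 2 or 3 (0.0644 and 0.0571), and Lpl without p53 mKO array 1 or 3 (0.116 and 0.108) and mobile control array 1 or 3 (0.111 and 0.129). Other settings ended calls too: the mean of all probes that of Acadm (-0.61, 0.159), all 17 arrays those of Acadm (0.198) and Lpl (0.0924), a variance trend and the replicate block that of Lpl (0.0672 and 0.062), and no filter on dim genes those of Eci1 (0.0501) and Hadh (0.0539). The number called was 3 without p53 mKO array 1 or mobile control array 3, 4 without p53 mKO array 2 or mobile control array 2, and 5 without p53 mKO array 3 or mobile control array 1. Without both arrays numbered 3, 9 members were called, 7 lower and 2 higher, 6 of them among those above. Acadm, Hadh and Lpl were lost, Acaa2 and Acadvl were gained as lower, and Mlycd was gained as higher. Over all genes 1244 of 10996 were called in that fit, against 1057 of 10842 with every array.

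Control plasmid muscles were also set against mobile control limbs, since the p53 plasmid was read against a transfected muscle. Here the experiment, the strain label and the transfection cannot be told apart. Of 32 members 19 were lower and 1 higher in the control plasmid muscles, where 37.0% of 11432 genes were called, 15.9% higher and 21.1% lower, in a fit of all 17 arrays. Acsl5 was the higher one, at 11.47, 11.45, 11.41 and 11.26 on the control plasmid arrays, against 10.01, 10.13 and 10.28 on the mobile control arrays (1.26 ± 0.17, adjusted p = 5.43e-05). Among the lower ones were Eci1 (-0.80 ± 0.14), Plin5 (-0.79 ± 0.13), Decr1 (-0.71 ± 0.12), Mlycd (-0.68 ± 0.12), Etfb (-0.65 ± 0.08), Fabp3 (-0.58 ± 0.13) and Lpl (-0.49 ± 0.08). Of the 19 carnitine and beta oxidation genes 15 were lower and 0 higher, with a median of -0.40.

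Acsl6 differed by 0.05 ± 0.10 between control plasmid and mobile control muscles, Acadl by -0.25 ± 0.28 and Ucp3 by -0.36 ± 0.18, and none of these passed. Calls of 12 genes were kept whichever array was left out. Those of Acadm, Cpt1b, Eci2, Etfa, Hadh, Hadhb, Pnpla2 and Slc25a20 were not, each of the 7 arrays of the 2 groups ending at least 1 of them, with the highest adjusted p between 0.0669 for Hadhb and 0.122 for Etfa. With the mean of all probes Acadm (-0.51, 0.0648) and Slc25a20 (-0.19, 0.0633) did not pass, nor did Acadm with no filter on dim genes (0.0605). All 9 macrophage markers were higher in the control plasmid muscles than in mobile control limbs, their means being 10.916 to 11.242 and 9.411 to 9.517, and 7 of 8 tested endothelium markers were lower. Slow fibre markers were higher in 3 of 8 and lower in 0, erythroid markers lower in 2 of 3, and adipocyte markers lower in 1 of 5. Their means were 10.552 to 11.256, 10.097 to 10.74 and 8.727 to 8.842 on the control plasmid arrays, against 10.751 to 11.015, 10.847 to 11.443 and 8.895 to 9.047 on the mobile control arrays. Fibroblast markers were lower in 1 of 6 and higher in 0. The part of other cells was not tested.

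**Figure D5:**
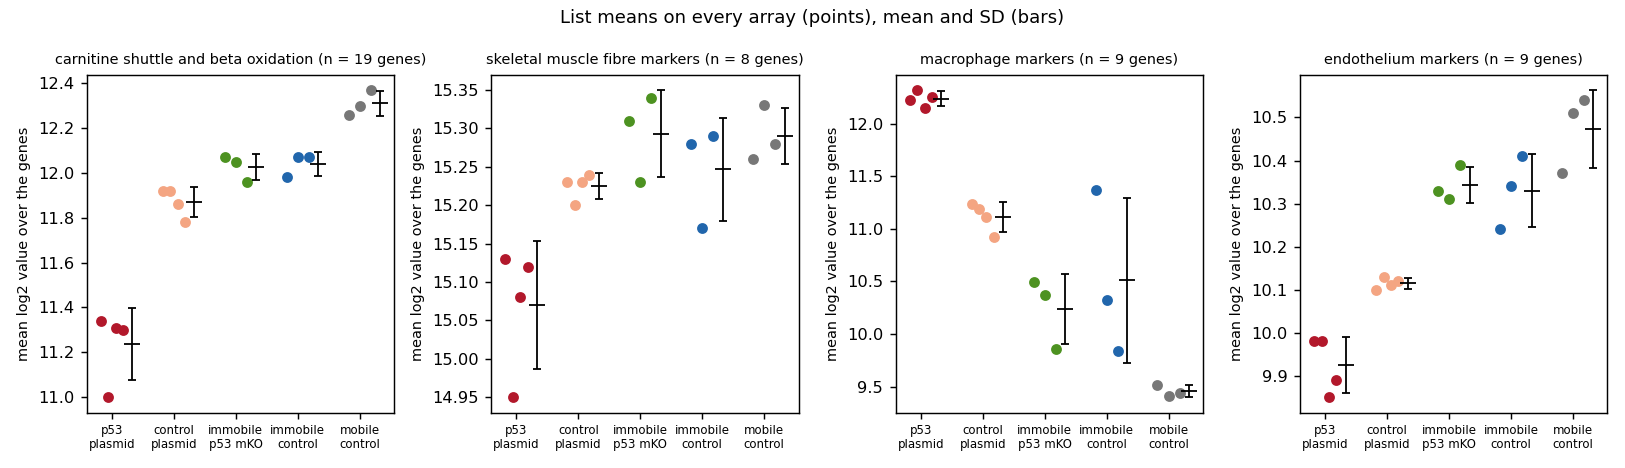
Mean log2 value over the 19 tested carnitine and beta oxidation genes and over 3 lists of cell markers on every array (points, by group), with the group mean and SD beside them. The oxidation genes lie between 11 and 11.34 on the p53 plasmid arrays and between 12.26 and 12.37 on the mobile control arrays, with the other 3 groups between, while the macrophage markers are highest with the p53 plasmid, at 12.15 to 12.32, and lowest in mobile limbs, at 9.41 to 9.52.

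To ask where the responses to the plasmid and to immobilization differ, the immobilization difference was subtracted from the p53 plasmid difference in a fit of all arrays. The 2 differences share no array. Of 32 members 12 were called lower and 2 higher, where 23.4% of 11432 genes were called, 12.4% higher and 11.0% lower. Acsl6 had the largest value, -1.37 ± 0.15 (adjusted p = 0.000106): it fell with the p53 plasmid and rose in the 9-array fit of immobile control limbs. Lpl was the reverse case, 0.58 ± 0.11 (adjusted p = 0.00268), having risen with the p53 plasmid and fallen in the 9-array fit of immobile limbs. In the fit of all 17 arrays, from which the difference of responses comes, the immobilization difference of neither gene passed (adjusted p = 0.051 for Acsl6 and 0.0571 for Lpl). All 4 tested carnitine shuttle genes were called lower, Mlycd by 0.99 (adjusted p = 0.00117), Cpt2 by 0.68 (0.00438), Slc25a20 by 0.56 (0.00688) and Cpt1b by 0.56 (0.0486). Pnpla2 was lower by 0.73 (0.00251), Acadvl by 0.76 (0.00952), Echs1 by 0.75 (0.00934) and Eci2 by 0.37 (0.0122).

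Acsl3 (-0.60), Acsl5 (0.71), Acads (-0.40) and Etfa (-0.41) were called too. The calls of Acsl3, Acsl5, Acads, Etfa and Cpt1b were lost in some of the fits that left out 1 array, with the highest adjusted p of 0.0673 without immobile control array 2 for Acsl3, 0.114 without that array for Acsl5, 0.0826 without mobile control array 1 for Acads, and 0.0896 and 0.111 without immobile control array 3 for Etfa and Cpt1b. Every array but immobile control array 1 ended at least 1 of these 5 calls. That of Cpt1b was also lost with quantile normalization (0.0618), and that of Slc25a20 with the mean of all its probes (-0.24, 0.114). With the mean of all probes Acads was at -0.12 (0.33) and Etfa at -0.30 (0.0907), and with array weights Acads was at -0.22 (0.0734), none of which passed. Acsl5 was lost with median centring (0.0503), and Acsl5 and Cpt1b with no filter on dim genes (0.0624 and 0.0704). For Fabp3 (-0.06 ± 0.19), Plin5 (0.04 ± 0.18) and Angptl4 (0.31 ± 0.28) no difference between the responses was called. Across the 32 members the 2 responses had a Pearson correlation of 0.576 (Spearman 0.376), against 0.52 (0.513) across 10059 genes. These are descriptions across genes, which are not independent replicates.

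Lists of neighbouring pathways give the setting, to be read against the 30.2% of all genes that rose and 28.6% that fell with the p53 plasmid, and the 5.1% and 6.36% in immobile control limbs. With the p53 plasmid, 18 of 20 other genes of mitochondrial oxidation fell and 0 rose, among them Crat, carnitine acetyltransferase (-1.26 ± 0.12), Pccb (-0.87 ± 0.06), Pcca (-0.56 ± 0.06) and Acad8 (-0.44 ± 0.04). Of 14 peroxisomal genes 7 fell and 0 rose, with the transporters Abcd3 (-0.52) and Abcd2 (-0.39) among them. Of 15 genes of fatty acid synthesis 7 rose (46.7%) and 4 fell (26.7%), the second share being near that of all genes. Acly, which makes cytosolic acetyl-CoA, rose by 0.88 (SE 0.05, adjusted p = 1.07e-05) and the elongases Elovl1 and Elovl5 by 1.17 and 0.69, while the lipogenic factor Mlxipl fell by 1.02. In immobile control limbs 5 of 20 genes of mitochondrial oxidation fell and 0 rose, Acot13 by 0.56, Acot11 by 0.50, Mcee by 0.37 and Etfrf1 by 0.30 among them. There 0 of 14 peroxisomal genes passed, with 2 at an unadjusted p under 0.05, and 1 of 15 synthesis genes fell (Scd2, -0.19), or 6.67%, a share near that of all genes.

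Droplet and transport genes changed in both directions with the p53 plasmid. Plin2, a droplet coat protein found in many cell types, was at 11.96, 11.83, 11.58 and 11.72 on the p53 plasmid arrays, against 10.31, 10.1, 10.26 and 10.05 on the control plasmid arrays (1.59 ± 0.09, adjusted p = 1.07e-05). That is opposite to Plin5. Fabp5, a binding protein of macrophages and epidermis among others, was at 9.82, 10.02, 9.96 and 9.96 on the p53 plasmid arrays, against 8.76, 8.72, 8.79 and 8.71 on the control plasmid arrays (1.2 ± 0.04, adjusted p = 4.21e-06). That is opposite to Fabp3. In all, 4 of 18 droplet genes rose (22.2%) and 10 fell (55.6%). Of 12 transport genes 4 rose and 4 fell, 33.3% each, shares near those of all genes. Fitm1, which packs triglyceride into droplets, fell by 1.07 and Gpam, the first enzyme of triglyceride synthesis, by 0.81, while Bscl2, or seipin, rose by 0.57. Lipa, lysosomal acid lipase, rose by 0.95, and the lipoprotein receptor Vldlr and Got2 fell by 1.24 and 0.44. In immobile control limbs 2 of 18 droplet genes fell, Fitm2 by 0.81 and Plin3 by 0.47, and 2 of 12 transport genes, Got2 by 0.22 and Lmf1, which matures lipases, by 0.28. Plin2 was there at 10.1, 9.47 and 9.14 on the immobile control arrays, against 9.16, 9.23 and 9.27 on the mobile control arrays, and did not pass (0.35 ± 0.22).

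Of the genes for regulators of oxidative metabolism, 16 of 21 fell and 2 rose with the p53 plasmid (76.2% and 9.52%). In immobile control limbs 7 of 22 fell (31.8%), 0 rose and 15 did not pass, 8 of the 22 lying above 0. Perm1, a muscle partner of the PGC-1 coactivators, was at 11.64, 10.5, 11.23 and 11.36 on the p53 plasmid arrays, against 12.79, 12.7, 12.6 and 12.2 on the control plasmid arrays (-1.39 ± 0.24, adjusted p = 0.00116). It was at 11.21, 10.86 and 10.92 on the immobile control arrays, against 13.08, 13.39 and 13.49 on the mobile control arrays (-2.32 ± 0.13, adjusted p = 7.73e-05). Esrra, the receptor ERR alpha, fell by 0.57 with the p53 plasmid (adjusted p = 0.0014) and by 0.81 in immobile control limbs (0.000886). The coactivator Ppargc1a fell by 0.52 (0.00592) and 0.60 (0.00524), and Ppargc1b by 0.44 (0.0204) and 0.87 (0.00346). Pparg rose with the p53 plasmid (0.79 ± 0.09, adjusted p = 9.91e-05) and differed by -0.04 ± 0.07 in immobile control limbs. Ppara, Ppard and Esrrg stayed between 8.27 and 8.42 on all arrays and were not tested, so no level can be read for the receptors most often tied to these members.

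Pdk4, a kinase that spares glucose when fatty acids are burnt, was at 12.28, 11.18, 12.29 and 11.65 on the p53 plasmid arrays, against 13.04, 12.45, 12.78 and 12.89 on the control plasmid arrays (-0.94 ± 0.26, adjusted p = 0.0127). It differed by 0.06 ± 0.45 between immobile control and mobile control limbs. In immobile p53 mKO against immobile control limbs, 0 of 22 regulators were called, and 1 had an unadjusted p under 0.05. There Esrra differed by 0.29 ± 0.08 and Perm1 by 0.28 ± 0.13. Ketone body genes fell in immobile control limbs, Bdh1 by 0.91 (adjusted p = 7.73e-05) and Oxct1 by 0.48 (0.00866) of 3 tested, and with the p53 plasmid Bdh1 and Oxct1 fell by 0.31 and 0.46 while Bdh2 rose by 0.38.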

How the data were processed

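RNA of 17 muscles was amplified, labelled as biotin cRNA and read on single-colour bead arrays, per the labels' protocols. The log2 values were normalized between arrays and deposited by the authors. How they were normalized and background-corrected is not given in the sources used here, and the log base was read from their range. No detection values were used, and precision is limited by how many arrays each group has. Probe annotation paired 23978 of 25697 probes with 1 symbol and 0 with several, leaving 1719 unnamed. Symbols were updated by gene identifier (99.9% matched), and each of 16593 genes was read on the probe with the highest mean, 4777 having several.

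A gene was tested if it exceeded the 40th percentile (8.4 to 8.41) of an array on a number of arrays no smaller than the smallest group in the fit. The test was limma 3.58.1 (lmFit, eBayes; R 4.3.3), with Benjamini-Hochberg adjustment over all genes tested and a threshold of 0.05. Fits held the 9 immobilization arrays (10842 genes), the 8 transfection arrays (10398 genes) or all 17 arrays (11432 genes). The fits were tested on simulated data. Errors of differences are standard errors.

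Members, lists and tests were chosen with earlier results of these data known. Named genes were all 38 members, up to 4 called genes of each neighbouring list per comparison by smallest p, and 9 regulators whatever their p. Of the genes this allows, those printed are a selection. Plin2 in immobile limbs, Crat on single arrays and single cell markers were named after their values were seen. The alternatives without both immobile arrays numbered 3, and with the replicate block in 2 groups alone, were added after seeing the data.

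Replicate numbers come from the sample titles. Deviations from the group means of same-numbered arrays correlated at 0.62, 0.482 and 0.813 between immobile p53 mKO and immobile control arrays. Unlike-numbered arrays of these 2 groups correlated at 0.178 and 0.199 between numbers 1 and 2, and at -0.757 to -0.438 in the other pairs. The numbers were taken to pair these groups, though the labels give no pairing and the correlations come from the values tested. Between immobile control and mobile control arrays the correlations were 0.084, 0.069 and 0.18. They were 0.176, -0.132 and 0.102 between immobile p53 mKO and mobile control arrays, and 0.242, -0.012, 0.056 and 0.012 between the plasmid groups. Those groups were not treated as paired, but correlations of so few arrays cannot tell whether limbs share a mouse. The series' text names C57BL/6 mice for immobilization where the sample labels say littermate controls, and the sample labels were followed. No build is given for the arrays, and promoter positions are those of RefSeq on GRCm38.p6.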

Additional observations from a re-analysis of the deposited data

Results flagged for a closer look

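In the groups of 4, 64 sets of values were searched for an array far from the other 3, and 7 were found, where chance gives about 1 in 20. Array 2 of the p53 plasmid group was lowest for Cpt1b (11.29, the others 11.96 to 12.02), Cpt2 (10.28, the others 10.51 to 10.54), Eci1 (10.82, the others 11.37 to 11.47) and Decr1 (8.93, the others 9.23 to 9.28). Without that array each of these 4 genes was still called lower with the p53 plasmid, Cpt1b by 0.88, Cpt2 by 0.69, Eci1 by 0.69 and Decr1 by 0.72. Acsl3 was highest on p53 plasmid array 4 (9.32, the others 9.23 to 9.24), Cpt1b lowest on control plasmid array 4 (12.71, the others 12.92 to 12.94) and Ucp3 lowest on control plasmid array 2 (9.48, the others 9.75 to 9.76).

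The responses to the p53 plasmid and to immobilization were called with opposite signs in 2 members when each experiment was fitted on its own. In the fit of all 17 arrays, which gives the difference of the responses, neither immobilization difference passed (adjusted p = 0.051 for Acsl6 and 0.0571 for Lpl). Acsl6 differed by -1.04 with the p53 plasmid and 0.33 with immobilization, and the difference of the responses was -1.37 (adjusted p = 0.000106). Lpl differed by 0.33 and -0.25, and the difference was 0.58 (adjusted p = 0.00268).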

How the results depend on the processing

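No called member changed direction under any alternative run. Between immobile control and mobile control limbs, 8 members were called, and 5 with no filter on dim genes, 14 with array weights, 4 with only the arrays of these 2 groups, and 3 to 7 with 1 array left out. Quantile normalization, median centring, the mean of all probes, a variance trend, all 17 arrays in 1 fit and the fit without both immobile arrays numbered 3 gave 8 to 10. Between immobile p53 mKO and mobile control limbs, 9 were called, 7 to 13 under the settings that kept all arrays, and 3 to 5 with 1 array left out. For the p53 plasmid 27 were called and 26 to 29 under the alternatives, for the control plasmid against mobile limbs 20 and 14 to 23, and for the difference of responses 14 and 10 to 17. Between immobile p53 mKO and immobile control limbs the count was 0 in every fit run.

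With the replicate number as a block (paired), 12 members were called for immobilization and 11 for immobile p53 mKO against mobile limbs. For the p53 plasmid 27 were called, and 0 for immobile p53 mKO against immobile control limbs. Over all genes the block gave 1601 calls for immobilization, against 1243 without it. For immobile p53 mKO against mobile limbs it gave 1295 against 1057, and for the p53 plasmid 5862 against 6113. The labels give no pairing, so this is only a hint. The block ended 1 member call, that of Lpl in immobile p53 mKO against mobile limbs (adjusted p = 0.062, limma). No paired fit was run for control plasmid against mobile limbs, whose samples share only numbers across experiments, or for the difference of responses.

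Counts over all genes moved from 1243 for immobilization to 2797 with array weights, 2136 with all 17 arrays, and 614 and 693 without mobile control array 2 or 3. For immobile p53 mKO against mobile limbs they moved from 1057 to 2204 and 1791 with the same settings, 1645 with only the 2 groups' arrays, and down to 447 without mobile control array 2. For the difference of responses array weights moved 2673 to 4363. The causes were not tested. Dim members near the floor limit what a missed threshold can show.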

Other observations

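Adipose tissue and slow fibres also hold many of these genes. Adipocyte markers, 6 with a probe, averaged 8.665 to 8.748 on the p53 plasmid arrays, 8.727 to 8.842 on the control plasmid arrays, 8.91 to 9.148 on the immobile p53 mKO arrays, 8.873 to 8.968 on the immobile control arrays and 8.895 to 9.047 on the mobile control arrays, and 0 of 4 tested were called for the p53 plasmid or for immobilization, with 1 and 0 at an unadjusted p under 0.05 (limma). Of 8 slow fibre markers 4 fell and 0 rose with the p53 plasmid, the myosin light chains Myl2 (-1.16 ± 0.29) and Myl3 (-1.16 ± 0.36), the calcium pump Atp2a2 (-0.44 ± 0.11) and Myoz2 (-0.60 ± 0.20). In immobile control limbs 2 of 8 fell, Myoz2 (-0.78 ± 0.05) and Myl2 (-1.71 ± 0.34). The slow fibre markers averaged 10.249 to 10.754 on the p53 plasmid arrays and 10.552 to 11.256 on the control plasmid arrays, which overlap, and Myh7 stayed under 9 on every array.

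Angptl4 and Pdk4 were lowest on the array numbered 2 in each of the 3 immobilization groups, a pattern picked out after the values were seen. Angptl4 stood there at 9.77 in immobile p53 mKO, 9.85 in immobile control and 8.92 in mobile control limbs, and Pdk4 at 12.32, 12.46 and 12.18. The other arrays of these groups ran from 10.1 to 10.17, 10.45 to 10.76 and 9.17 to 9.76 for Angptl4, and from 13.07 to 13.24, 13.14 to 13.71 and 13.37 to 13.57 for Pdk4. What the replicate numbers share is not given in the labels.

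Crat was high on both immobile arrays numbered 3, at 12.61 in the p53 mKO and 12.88 in the immobile control group, where the other 4 immobile arrays lay at 11.8 to 11.98, opposite to Acadl and Acaa2 on the same arrays.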
